A study of Mus musculus with 12 samples.

Results

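A set of 10 genes around the Ras-ERK branch of T cell receptor (TCR) signalling was followed in responder CD4+ T cells after blockade of PD-L1, of Lag3 or of both: the Ras exchange factor genes *Rasgrp1*, *Rasgrp2* and *Rasgrp4*, the dual-specificity phosphatase genes *Dusp2*, *Dusp4*, *Dusp5*, *Dusp6* and *Dusp10*, and the Sprouty genes *Spry1* and *Spry2*. They were chosen by name, with earlier results of these data known. The paper had already named *Rasgrp2* among the genes downregulated by blockade of both in these data. Its overlap of these data with human CD4 cells on combined therapy listed *DGKA* and *CDC25B* as downregulated. Its gene set analysis of blockade of both against isotype control found no enrichment of mainly ERK-dependent genes. All 10 were found among the 56691 mouse genes of the count table. They passed the filter of 30 reads summed over the libraries, as did 15138 genes in all. The mice were Tg4 *Nr4a3*-Tocky *Il10*-GFP, which carry a transgenic TCR for a myelin basic protein (MBP) peptide and a Timer protein made when *Nr4a3* is transcribed. The study used males and females, typically 6 to 8 weeks old, and the paper does not give the sex of these 12 mice. All 12 received 4 mg/kg of [4Y]-MBP peptide, then antibody after 24 h, then 0.4 mg/kg of peptide 30 min later. Their spleens were taken 12 h after that. The 4 groups of 3 mice differed in the antibody: a pool of rat IgG1 and rat IgG2a (isotype), anti-PD-L1, anti-Lag3, or both antibodies (co-blockade, CB); the mice of a group are numbered as in the labels. Live CD4+ cells positive for both the blue and the red Timer form (responders) were sorted and gave 1 bulk library per mouse, so only cells that had transcribed *Nr4a3*, in mice of 1 transgenic TCR, are described, and the isotype mice had been given peptide as well. Cells were sorted in batches of 4, with another CD4 fluorochrome for each condition, so stain and treatment cannot be told apart. The labels do not say which mice shared a batch, and the part of the batches in the results was not tested directly. In bulk libraries fewer cells of a type and less RNA per cell cannot be told apart.

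Antigen recognition produces diacylglycerol, which recruits RasGRP proteins such as RasGRP1 to membranes, where they load Ras-family proteins with GTP. Active Ras then drives the Raf, MEK and ERK kinases. Dual-specificity phosphatases remove phosphate from ERK and related kinases, Sprouty proteins restrain signalling to Ras and ERK, and several of these genes are themselves induced by ERK, which makes them a feedback arm. The comparisons ask whether the transcripts of this module moved with blockade.

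The libraries held between 16449370 and 22151025 reads on genes (median 19176439). Levels are given as CPM, read counts scaled to a common library size with edgeR's TMM factors, with the SD over 3 mice, and are compared between groups and not between genes. The summed level of 8 CD4 T cell markers was 2744 to 2867 CPM in isotype and 2428 to 2520 CPM in CB libraries. Of 6 B cell markers the sum ran from 324 to 428 CPM over all libraries, nearly all of it *Ighm*, while *Cd79a* had 0 reads in 7 libraries. The 6 myeloid markers summed to between 54.9 and 89.5 CPM, mostly *Cst3*, and the 4 NK cell, 5 mast cell and basophil and 3 platelet markers to at most 6.62, 2.89 and 3.31 CPM. *Fcer1a* and *Ms4a2* had 0 reads in all 12 libraries. The 2 CD8 markers summed to between 40.9 and 45.3 CPM in isotype and between 25.0 and 33.2 CPM in CB, almost entirely *Cd8b1*, with *Cd8a* at or below 3.24 CPM. The 4 erythroid markers were higher in isotype, at 222 to 406 CPM, than in CB, at 143 to 182 CPM. The part of these marker differences in the results below was not tested.

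Between CB and isotype, 3 of the 10 genes passed the test, and all 3 were lower in CB: *Rasgrp2*, *Rasgrp1* and *Dusp10*. Of all 15138 genes tested 4.29% were called: 1.96% of the genes tested were lower and 2.33% were higher. None of the 10 was called as higher. The median log2 fold change of the 10 was -0.31, against 0 over all genes, and 8 of the 10 estimates were below 0. At an unadjusted p under 0.05 there were 4 of the 10, with *Dusp5* as the fourth, and 14.9% of all genes. The samples of CB and isotype did not overlap for 5 of the 10, *Rasgrp1*, *Rasgrp2*, *Dusp5*, *Dusp10* and *Spry1*, all lower in CB, where 9.62% of all genes were lower without overlap.

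**Figure D1:**
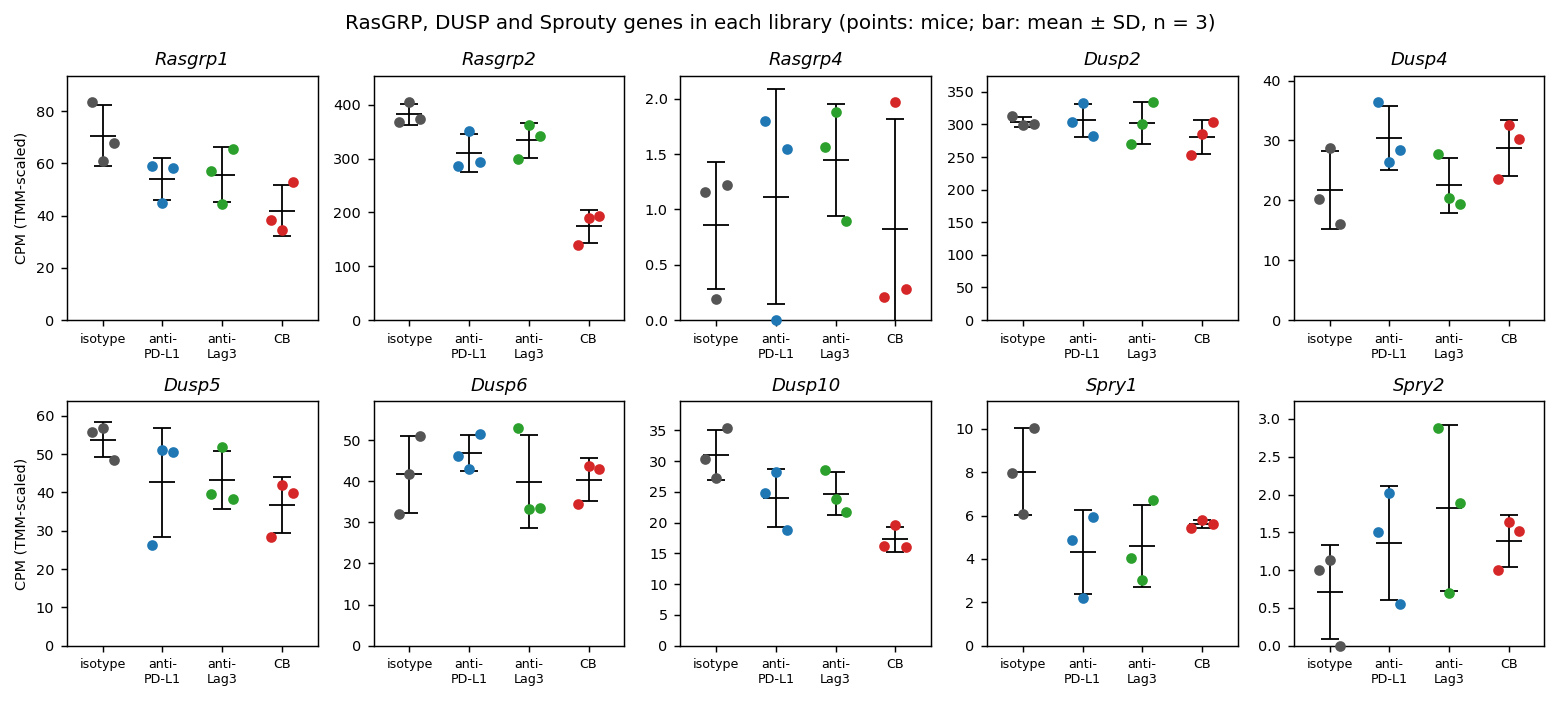
Level of each of the 10 genes in each library, in TMM-scaled CPM on linear axes that start at 0, by group; points are mice, the long bar is the mean and the capped line is the SD (n = 3), drawn only down to 0. *Rasgrp2* in CB, at 139 to 193 CPM, lies below all libraries of the other groups, and *Rasgrp4* and *Spry2* stay under 3 CPM in all groups.

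Among the exchange factors, *Rasgrp2* (ENSMUSG00000032946, chromosome 19 from 6399340 to 6415216 of GRCm38, plus strand) showed the largest difference relative to its error. Its protein is activated by calcium and acts mainly on the Ras relative Rap1, which controls integrin adhesion. It was at 368, 405 and 373 CPM in the isotype mice, at 286, 351 and 294 CPM after anti-PD-L1, at 298, 362 and 342 CPM after anti-Lag3, and at 139, 190 and 193 CPM after CB. All CB samples were below every other sample, and the samples of each single antibody were below every isotype sample. From 382 ± 20.0 CPM in isotype to 174 ± 30.1 CPM in CB (SD, n = 3 each), the log2 fold change was -1.14 (standard error 0.12, 95% interval -1.38 to -0.89, adjusted p = 1.85e-06 in the quasi-likelihood test of edgeR, adjusted after Benjamini and Hochberg), which leaves 45.5% of the isotype level. By p it ranked 5 among the 15138 genes. Part of its exons, 265 bases, overlaps the antisense gene *Gm14965*, which had 0 reads.

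*Rasgrp1* (ENSMUSG00000027347, chromosome 2 from 117279993 to 117343001, minus strand) encodes the exchange factor that couples the TCR to Ras in T cells. Its level was 83.5, 60.8 and 67.7 CPM in isotype, 59.2, 44.8 and 58.3 CPM after anti-PD-L1, 57.0, 44.6 and 65.4 CPM after anti-Lag3, and 38.3, 34.3 and 52.9 CPM after CB. The CB samples were below all isotype samples but overlapped with both single antibodies. The log2 fold change of CB against isotype was -0.76 (standard error 0.19, 95% interval -1.15 to -0.37, adjusted p = 0.0169, same test), or 59.2% of the isotype level. The call was lost without isotype 1, without CB 1 or without CB 2, with estimates of -0.96 to -0.62 and adjusted p up to 0.123 over the 12 fits that each leave out 1 library. Against a log2 fold change of 0.2 rather than 0 its adjusted p was 0.0555 by edgeR and 0.247 by DESeq2. The other 7 alternative analyses kept the call, with adjusted p from 0.00103 (edgeR without a filter) to 0.0254 (edgeR with only the groups compared).

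*Rasgrp4* (ENSMUSG00000030589, chromosome 7 from 29134851 to 29153961, plus strand), known for its expression in mast cells, had 0 to 41 reads per library. The reads were 23, 3 and 23 in isotype, 31, 0 and 34 after anti-PD-L1, 31, 38 and 17 after anti-Lag3, and 4, 41 and 6 after CB. No group stood apart. A count of 0 allows up to 3 reads in that library, a limit for counting error only, since amplified reads do not each stand for 1 molecule. The interval of its log2 fold change between CB and isotype ran from -3.48 to 3.36, which holds both large rises and large falls, and the mice of 1 group differed widely. Its exons share 978 bases with the antisense gene *Fam98c*, which had 5345 reads against 251 of *Rasgrp4* over the libraries, and with the strand of counting not stated reads of the 2 genes cannot be told apart there.

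Of the 5 phosphatase genes, *Dusp10* alone passed the test between CB and isotype. Its product acts mainly on the stress kinases p38 and JNK rather than on ERK. *Dusp10* (ENSMUSG00000039384, chromosome 1 from 184013302 to 184075636, plus strand) was at 30.3, 27.3 and 35.4 CPM in isotype, 24.8, 28.2 and 18.8 CPM after anti-PD-L1, 28.6, 23.9 and 21.7 CPM after anti-Lag3, and 16.2, 19.7 and 16.1 CPM after CB. The CB samples lay below all isotype and all anti-Lag3 samples and overlapped with anti-PD-L1. The log2 fold change was -0.84 (standard error 0.24, 95% interval -1.33 to -0.35, adjusted p = 0.0411, same test), or 55.9% of the isotype level. This call was close to the threshold: it was lost without any 1 of the isotype or CB mice and without anti-Lag3 2, in 7 of 12 such fits, with estimates of -0.94 to -0.74 and adjusted p up to 0.166. Against 0.2 its adjusted p was 0.0951 by edgeR and 0.259 by DESeq2. The other 7 alternative analyses kept the call, with adjusted p from 0.0121 (DESeq2 against 0) to 0.0442 (edgeR with only the groups compared).

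*Dusp5* (ENSMUSG00000034765, chromosome 19 from 53529109 to 53542431, plus strand) encodes a nuclear phosphatase of ERK. It was at 55.9, 56.9 and 48.5 CPM in isotype and at 28.3, 42.0 and 39.8 CPM in CB, with no overlap, but did not pass the test (log2 fold change -0.55, standard error 0.22, 95% interval -1.01 to -0.09, adjusted p = 0.204, same test). After anti-PD-L1 it was at 26.2, 51.1 and 50.4 CPM and after anti-Lag3 at 39.6, 51.8 and 38.3 CPM. Both single-antibody groups overlapped with isotype and with CB. An antisense gene, AC137853.2, shares 547 bases of its exons and had 80 reads against 10228.

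The cytoplasmic ERK phosphatase gene *Dusp6* (ENSMUSG00000019960, chromosome 10 from 99263231 to 99267489, plus strand), which is induced by ERK in many cells, was at 32.2, 41.8 and 51.0 CPM in isotype and at 34.5, 43.7 and 43.1 CPM in CB. The groups overlapped, and the log2 fold change was -0.04 (95% interval -0.47 to 0.39). After anti-PD-L1 its levels were 46.1, 43.0 and 51.5 CPM and after anti-Lag3 53.0, 33.3 and 33.4 CPM. *Dusp2* (ENSMUSG00000027368, chromosome 2 from 127336159 to 127338376, plus strand), which encodes another nuclear phosphatase of activated lymphocytes, was at 313, 299 and 300.3 CPM in isotype, 304, 333 and 283 CPM after anti-PD-L1, 270.3, 300.4 and 334 CPM after anti-Lag3, and 252, 285 and 304 CPM after CB. All 4 groups overlapped. Its interval was the narrowest of the 10, with a log2 fold change of -0.12 between CB and isotype and a 95% interval of -0.33 to 0.10.

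*Dusp4* (ENSMUSG00000031530, chromosome 8 from 34807297 to 34819894, plus strand), whose nuclear product acts on ERK and other MAP kinases, had a positive estimate. It was at 20.3, 28.8 and 16.0 CPM in isotype, 36.4, 26.4 and 28.4 CPM after anti-PD-L1, 27.8, 20.3 and 19.4 CPM after anti-Lag3, and 23.5, 32.5 and 30.2 CPM after CB. The spread within isotype reached into the range of each other group. The log2 fold change of CB against isotype was 0.41 (95% interval -0.11 to 0.93, adjusted p = 0.451, same test).

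Of the Sprouty genes, *Spry1* (ENSMUSG00000037211, chromosome 3 from 37639947 to 37644598, plus strand) was at 7.95, 6.08 and 10.1 CPM in isotype, 4.88, 2.19 and 5.92 CPM after anti-PD-L1, 4.05, 3.02 and 6.72 CPM after anti-Lag3, and 5.45, 5.82 and 5.63 CPM after CB. The CB and anti-PD-L1 samples were below all isotype samples, on 39 to 190 reads per library. The log2 fold change of CB against isotype was -0.51 (95% interval -1.63 to 0.61, adjusted p = 0.758, same test), and no comparison of it passed. Its exons share 710 bases with the antisense gene *Gm42922*, which had 59 reads against 1313. *Spry2* (ENSMUSG00000022114, chromosome 14 from 105891947 to 105896819, minus strand) had 20, 18 and 0 reads in isotype, 26, 36 and 12 after anti-PD-L1, 57, 14 and 36 after anti-Lag3, and 19, 34 and 33 after CB. The mice within a group differed widely, and the interval of its log2 fold change between CB and isotype ran from -2.07 to 3.96.

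**Figure D2:**
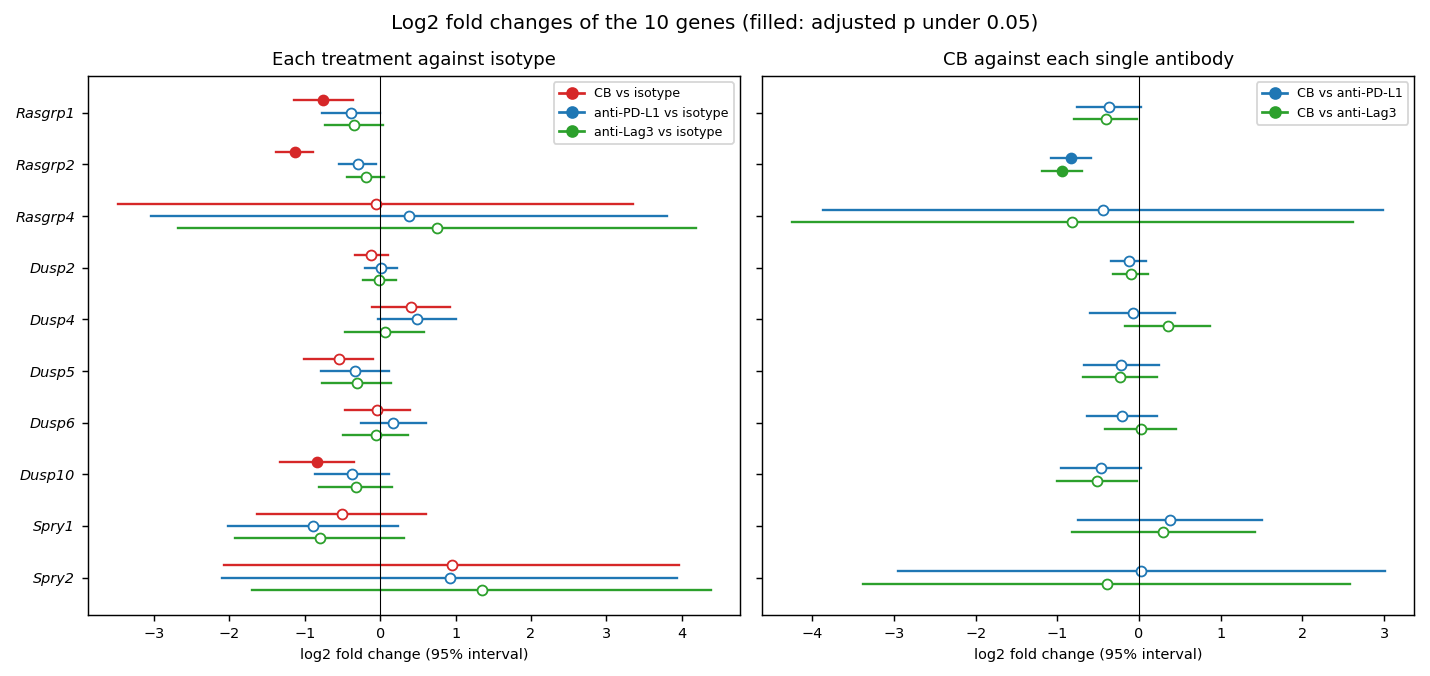
Log2 fold change (x axis, linear) of the 10 genes with 95% intervals from the fit across all genes, on the left for each treatment against isotype and on the right for CB against each single antibody; filled points have an adjusted p under 0.05. *Rasgrp1*, *Rasgrp2* and *Dusp10* are filled for CB against isotype and only *Rasgrp2* on the right, and the intervals of *Rasgrp4* and *Spry2* span several log2 units.

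Neither single antibody moved any of the 10 genes past the threshold. Against isotype, anti-PD-L1 gave 0 calls among the 10, where 0.033% of all genes were called, and anti-Lag3 gave 0 calls, where 0% were. DESeq2's Wald test also called 0 of the 10 in each. At an unadjusted p under 0.05 there was 1 of 10 for anti-PD-L1, *Rasgrp2* (7.84% of all genes), and 0 of 10 for anti-Lag3 (5.21%). *Rasgrp2* had a log2 fold change of -0.30 with anti-PD-L1 (95% interval -0.54 to -0.06, adjusted p = 0.531, edgeR) and of -0.19 with anti-Lag3 (-0.44 to 0.05, adjusted p = 0.807, same test). For *Rasgrp1* the values were -0.39 (-0.77 to 0.00) and -0.34 (-0.73 to 0.04), and for *Dusp10* -0.37 (-0.86 to 0.12) and -0.33 (-0.82 to 0.16). *Dusp5* was at -0.33 and -0.31, *Dusp4* at 0.49 and 0.06, *Dusp6* at 0.17 and -0.06 and *Dusp2* at 0.01 and -0.01 for anti-PD-L1 and anti-Lag3 respectively. For *Spry1* they were -0.89 (-2.02 to 0.24) and -0.80 (-1.93 to 0.32). These comparisons share the isotype mice with each other and with CB against isotype. Samples did not overlap with isotype for 3 of the 10 after anti-PD-L1 (*Rasgrp1*, *Rasgrp2* and *Spry1*, lower, as 6.46% of all genes were) and for 1 of 10 after anti-Lag3 (*Rasgrp2*, lower, as 4.81% were).

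*Rasgrp2* was lower in CB than after each single antibody. It was the 1 gene of the 10 that passed between CB and anti-PD-L1, where 0.37% of all genes were called (0.165% as lower), and between CB and anti-Lag3, where 0.694% were (0.304% as lower). The log2 fold change was -0.84 against anti-PD-L1 (standard error 0.12, 95% interval -1.08 to -0.59, adjusted p = 0.00141, same test) and -0.94 against anti-Lag3 (standard error 0.12, 95% interval -1.19 to -0.70, adjusted p = 1.26e-04, same test). In both comparisons it had the 2nd smallest p of all genes. It was called in all 9 alternative analyses and all 12 fits without 1 library, in both comparisons and against isotype. *Dusp10* differed from anti-PD-L1 by -0.47 (95% interval -0.96 to 0.03) and from anti-Lag3 by -0.51 (-1.0 to -0.02), and *Rasgrp1* by -0.37 (-0.76 to 0.02) and -0.41 (-0.80 to -0.02), all 4 with adjusted p from 0.490 to 0.561 in the same test. Samples did not overlap for *Rasgrp2* in both comparisons and for *Dusp10* against anti-Lag3, lower in CB each time, as were 5.75% of all genes in the former and 7.09% in the latter.

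In order of level, *Rasgrp2* thus ran from isotype over anti-Lag3 (334 ± 32.6 CPM) and anti-PD-L1 (310 ± 35.7 CPM) to CB. The neighbours isotype and anti-Lag3 did not pass the test, nor did anti-Lag3 and anti-PD-L1 (log2 difference -0.11, 95% interval -0.35 to 0.14), whereas anti-PD-L1 and CB did. For all 10 genes anti-PD-L1 and anti-Lag3 gave 0 calls against each other, where 0% of all genes were called by edgeR, 4.69% had an unadjusted p under 0.05 and DESeq2 also called 0 of the 10. When equality of all 4 groups was tested at once, *Rasgrp2* was called (adjusted p = 1.49e-05, edgeR's quasi-likelihood F test, 2.15% of all genes called) and the other 9 were not. In 2 of the alternative analyses *Rasgrp1* was called by this test as well.

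Whether CB exceeded the sum of the single antibodies was tested by the interaction, CB minus both single antibodies plus isotype. It called 0 of the 10 genes and 0% of all genes by edgeR. DESeq2 called 0 of the 10, and 1 of the 10 had an unadjusted p under 0.05 (5.93% of all genes). That 1 was *Rasgrp2*: its log2 fold changes for the single antibodies added to -0.49, against -1.14 for CB, an interaction of -0.64 (standard error 0.17, 95% interval -0.99 to -0.30, unadjusted p = 7.10e-04, adjusted p = 0.752, same test). The adjusted p lay between 0.0900 and 1 over its alternatives. For *Rasgrp1* the sum was -0.73 against -0.76 for CB, an interaction of -0.02 (95% interval -0.57 to 0.52), and for *Dusp10* -0.70 against -0.84, an interaction of -0.14 (-0.83 to 0.55). The interval for *Dusp5* ran from -0.55 to 0.74. These intervals hold both additive and clearly non-additive responses for *Rasgrp1*, *Dusp5* and *Dusp10*.

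The sequences before the start sites of the 3 called genes are shown because these genes moved together in CB. In RefSeq's table for GRCm38.p6, 8 of the 10 genes had a start site, with 9 windows in all, 2 of them for *Rasgrp2*. RefSeq's starts differ from the gene bounds given above, which are GENCODE's. The windows of *Rasgrp2* and *Dusp10* lie inside those bounds, and that of *Rasgrp1* overlaps them. Sequence before the GENCODE start of *Rasgrp2* and *Dusp10* was thus not searched. Each sequence below is the 250 bases before the annotated start, 5′ to 3′ on the gene's strand, in lower case, with capitals for GGAAA (the core that NFAT recognises), TGANTCA (AP-1) and GTAAACA (forkhead) on either strand.
Rasgrp2, chr19:6399625-6399874, plus strand: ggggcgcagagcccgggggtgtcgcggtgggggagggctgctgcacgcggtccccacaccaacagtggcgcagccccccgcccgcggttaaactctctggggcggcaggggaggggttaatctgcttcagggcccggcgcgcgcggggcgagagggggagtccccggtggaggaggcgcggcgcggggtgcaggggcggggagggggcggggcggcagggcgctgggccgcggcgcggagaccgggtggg
Rasgrp2, chr19:6401455-6401704, plus strand: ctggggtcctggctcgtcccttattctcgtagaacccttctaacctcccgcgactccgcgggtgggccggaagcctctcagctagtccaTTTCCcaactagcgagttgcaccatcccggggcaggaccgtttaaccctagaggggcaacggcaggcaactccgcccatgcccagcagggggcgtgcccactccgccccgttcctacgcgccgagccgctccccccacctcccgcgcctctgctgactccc
Rasgrp1, chr2:117342878-117343127, minus strand: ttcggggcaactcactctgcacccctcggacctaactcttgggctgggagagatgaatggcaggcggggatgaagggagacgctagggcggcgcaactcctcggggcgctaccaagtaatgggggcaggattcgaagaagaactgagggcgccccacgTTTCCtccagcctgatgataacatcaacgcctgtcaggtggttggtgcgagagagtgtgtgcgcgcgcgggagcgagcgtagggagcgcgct
Dusp10, chr1:184034131-184034380, plus strand: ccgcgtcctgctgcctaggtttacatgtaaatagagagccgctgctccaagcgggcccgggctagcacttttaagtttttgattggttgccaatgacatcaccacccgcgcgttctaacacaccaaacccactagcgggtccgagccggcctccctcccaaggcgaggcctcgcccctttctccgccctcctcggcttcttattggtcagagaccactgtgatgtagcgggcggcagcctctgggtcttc

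GGAAA or its complement occurred once in the *Rasgrp1* window and once in the second *Rasgrp2* window, and not in the first *Rasgrp2* window or in that of *Dusp10*. Of all 32851 windows of this length 55.6% held it. Neither TGANTCA, found in 6.75% of all windows, nor GTAAACA, found in 3.17%, nor the EGR motif GCGTGGGCG, found in 0.536%, occurred in any window of the 8 genes. The GC box GGGGCGG, in 21% of all windows, occurred 4 times in the first and once in the second *Rasgrp2* window and in neither of the other 2 shown. *Dusp6* and *Spry2*, which did not pass the test, held GGAAA or its complement 2 and 3 times. A match is a stretch of letters and not a site, and the search says nothing of letters outside these windows.

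Other genes of the pathway were taken from 6 lists, of which 59 of 62 genes were tested. Between CB and isotype 5 of the 59 were called, all lower, beside 4.29% of all genes, and the median log2 fold change of the 59 was 0.04, with 27 below and 32 above 0. Upstream of Ras, 2 of 11 were lower (median -0.30), *Dgka* and *Grap2*. *Dgka* encodes a diacylglycerol kinase, which removes the lipid that RasGRP1 binds, and *Grap2* the adaptor Gads, which links LAT to SLP-76. *Dgka* was at 410.3, 440.0 and 409.9 CPM in isotype and at 222, 327 and 251 CPM in CB, without overlap (log2 fold change -0.65, standard error 0.11, adjusted p = 6.21e-04, same test). *Grap2* was at 129, 128 and 143 CPM against 77.6, 108 and 90.6 CPM, also without overlap (-0.53, standard error 0.13, adjusted p = 0.0124, same test). Among Ras GTPases and the GTPase-activating proteins that switch them off, 2 of 11 were lower (median 0.07), both of the latter kind. *Rasa3*, which acts on Ras and Rap1, was at 113, 160 and 145 CPM in isotype and 52.0, 79.1 and 77.8 CPM in CB (-1.0, standard error 0.16, adjusted p = 3.47e-04, same test). It was the 1 listed gene that also passed against a single antibody (anti-Lag3, -0.83, adjusted p = 0.00947, same test), a call lost without anti-Lag3 3 and without CB 1. Against 0.2 rather than 0 its adjusted p in that comparison was 0.138 by DESeq2 and 0.0422 by edgeR. *Rasal3* was at 106, 99.0 and 117 CPM against 70.8, 83.7 and 66.1 CPM (-0.55, standard error 0.14, adjusted p = 0.0245, same test). Its exons share 635 bases with an antisense gene of 478 reads.

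Genes that turn the branch on (*Rasgrp1*, *Grap2*) and genes that turn it off (*Dgka*, *Rasa3*, *Rasal3*) were thus both among those lower in CB. *Ier2*, an immediate-early gene, was the only 1 of 16 ERK-responsive genes called (median 0.18), at 84.0, 96.1 and 115 CPM in isotype and 56.0, 56.6 and 74.9 CPM in CB (-0.65, standard error 0.17, adjusted p = 0.0255, same test). The calls of *Grap2* (without isotype 3, CB 1 or CB 3), *Rasal3* (without isotype 1, isotype 3, CB 1 or CB 3) and *Ier2* (without isotype 2, isotype 3, CB 1 or CB 2) each rested on single libraries, whereas *Dgka* and *Rasa3* were called without any 1 library.

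**Figure D3:**
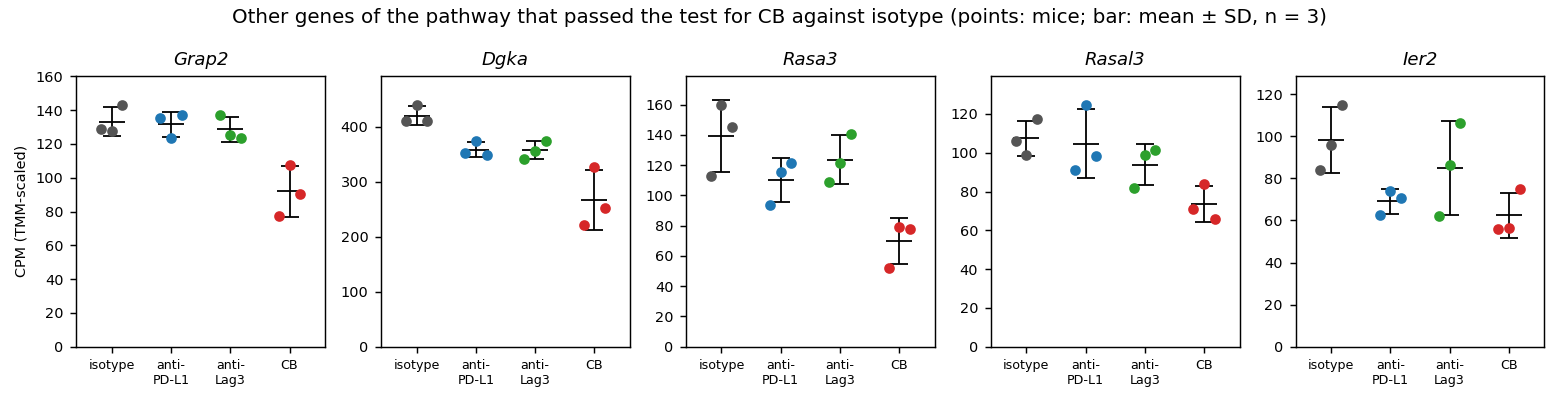
Level of the 5 listed pathway genes called between CB and isotype in each library, in TMM-scaled CPM on linear axes from 0, by group; points are mice, the long bar is the mean and the capped line the SD (n = 3). In each panel all 3 CB samples lie below all 3 isotype samples, while both single antibodies overlap with isotype for *Grap2*, *Rasa3* and *Rasal3* and neither does for *Dgka*.

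In the kinase cascade 0 of 11 genes were called between CB and isotype by edgeR and 0 by DESeq2 (1 at an unadjusted p under 0.05, median -0.05). The largest estimates were those of the scaffold *Ksr1*, at 45.1 ± 4.14 CPM in isotype and 66.0 ± 4.29 CPM in CB (0.55, 95% interval 0.19 to 0.91, adjusted p = 0.0762, same test), and the scaffold *Lamtor3* (0.29, -0.32 to 0.90). The smallest were those of the ERK gene *Mapk3* (-0.44, -0.92 to 0.05) and of *Araf* (-0.35, -0.73 to 0.03). Of 8 other DUSP genes 0 were called by either tool (1 at an unadjusted p under 0.05, median 0.66, also with the 2 genes of 0 reads in isotype at their bound). Of these 2, *Dusp3* had 0 reads in all isotype and anti-Lag3 libraries, 57 in 1 anti-PD-L1 library, and 10, 32 and 10 in CB, and *Dusp8* had 31 reads in 1 CB library, 1 in 1 anti-Lag3 library and 0 elsewhere. These 2 and *Dusp9*, *Dusp14* and *Dusp16* had group means of at most 4.84 CPM. The median of this list thus rests partly on genes of low level. *Dusp1*, which encodes another nuclear phosphatase, was at 106 ± 14.4 CPM in isotype and 87.1 ± 17.4 CPM in CB (-0.28, 95% interval -0.64 to 0.08), and *Dusp9* had 54 and 60 reads in these groups (-0.08, -4.29 to 4.12). Of the other Sprouty and Spred genes 2 of 5 were tested and 0 called by either tool (1 at an unadjusted p under 0.05): *Spred1* was at 11.6 ± 3.95 CPM in isotype and 17.7 ± 2.64 CPM in CB (0.60, 95% interval -0.15 to 1.36), and *Spred2* at 10.02 ± 2.66 and 4.68 ± 2.89 CPM (-1.10, -2.18 to -0.02, adjusted p = 0.328, same test).

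**Figure D4:**
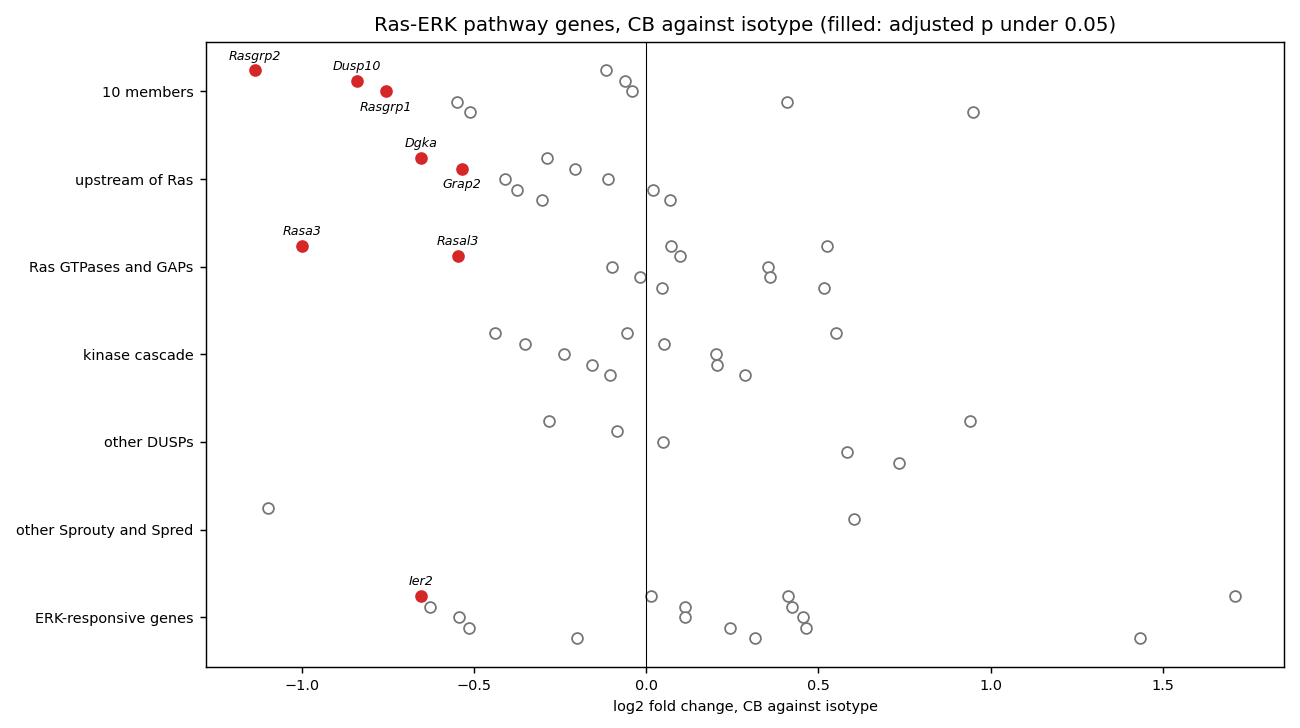
Log2 fold change between CB and isotype (x axis, linear) of the 10 genes and of the tested genes of 6 pathway lists, 1 point per gene with a vertical offset for legibility only; filled red points have an adjusted p under 0.05. The 3 genes with 0 reads in all libraries of isotype or CB are left out. All 8 filled points lie below 0, and the lists have points on both sides of 0.

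The genes whose levels ran most closely with *Rasgrp2* over the 12 libraries, by Pearson's r of log2 CPM among 8630 genes with a mean of at least 100 reads, were *Anxa2* (r = 0.965), *Nod1* (0.955), *Rasa3* (0.947), *Cdc25b* (0.945) and *Gm14085* (0.942). The points share the 4 groups, and r is given as a description. *Anxa2* encodes a calcium-dependent membrane-binding annexin and *Cdc25b* a phosphatase that activates cyclin-dependent kinases. *Anxa2* went from 105 ± 8.83 CPM in isotype to 46.8 ± 6.18 CPM in CB and *Cdc25b* from 199 ± 7.15 to 116 ± 13.5 CPM. Within the module r with *Rasgrp2* was 0.80 for *Dusp10*, 0.65 for *Rasgrp1*, 0.64 for *Dusp5* and 0.63 for *Dusp2*, and between -0.37 (*Dusp4*) and 0.10 (*Rasgrp4*) for the other 5.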

How the data were processed

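Messenger RNA of sorted responder CD4+ T cells was sequenced from the 3′ end (QuantSeq, 5 ng of RNA, 18 amplification cycles). The paper mentions no molecular identifiers. Per the labels and methods, the authors trimmed reads with Cutadapt 1.18, mapped them to GRCm38 with STAR 2.6.1a and assigned unique reads to genes with FeatureCounts 1.6.4; the annotation release and the strand setting are not given in the sources used here. The authors deposited raw read counts, whole numbers without normalization, for 56691 genes and 114 spike-in transcripts, and rlog values that were not used here. Spike-ins took 0.719% to 1.29% of counts and were left out. One gene without a symbol held 14.3% to 21.9% of the counts on genes. Symbols and coordinates were taken from GENCODE vM21, which matched 52073 genes; promoter sequences are RefSeq's. The number of unused sample columns was 0.

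Genes whose reads added to 30 or more over the 12 libraries were tested with edgeR 4.0.16 (limma 3.58.1, R 4.3.3): TMM, 4 group means fitted to all libraries without covariates, quasi-likelihood tests, Benjamini-Hochberg adjustment over all 15138 genes and a threshold of 0.05. Intervals are 95% and unadjusted. There were 8 comparisons: all 6 pairs of groups, the interaction and all 4 groups at once. The scripts were tested on simulated data. Within each group no library was a duplicate of another. Alternatives were DESeq2 1.42.0 against 0 and against 0.2, edgeR against 0.2, DESeq2's size factors, the largest gene left out, no filter, filterByExpr, only the groups compared, the replicate number as a block, and each library left out in turn.

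The 10 genes and all lists were chosen with earlier results of these data known. Other pathway genes are named where they passed in any comparison or, in lists without such a gene, as the 2 largest and 2 smallest changes between CB and isotype. The 5 genes most like *Rasgrp2* were taken by correlation. Replicates are separate mice. The main tests weigh a difference between groups against the spread between mice within groups, estimated over all 4 groups and across genes.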

Additional observations from a re-analysis of the deposited data

How the results depend on the processing

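Between CB and isotype 3 of the 10 genes were called. DESeq2 and edgeR against a log2 fold change of 0.2 each called 1, *Rasgrp2*, and the fits without 1 library called 1 to 3. The test of all 4 groups at once called 1 gene, but 2 (*Rasgrp1* and *Rasgrp2*) without a filter. The counts of the 10 were the same in the other 6 comparisons under every alternative. The replicate numbers in the titles are not stated to mark shared sort batches. Of 18 pairs of same-numbered libraries 2 had correlated deviations above 0.1 (r from -0.06 to 0.12), and 10 of 12 libraries correlated best with their own number. The highest r between libraries of different numbers was 0.07 (isotype 3 and anti-PD-L1 2). The paper ascribes component 2 of its principal component analysis largely to the sort batches. With the replicate block, 3 of the 10 were called between CB and isotype and 2 for all 4 groups at once. The other counts of the 10 did not change.

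Over all genes, 649 calls between CB and isotype became 918 with DESeq2 against 0, and 233 with DESeq2 and 364 with edgeR against 0.2. Without a filter there were 818 and with the replicate block 843. Calls between CB and anti-PD-L1 went from 56 to 178 with DESeq2, 18 and 3 against 0.2, 150 without a filter, 137 with the block and 4 with only the groups compared. Between CB and anti-Lag3 they went from 105 to 280, 41 and 39, 252 and 208 with these settings up to the block. For anti-PD-L1 against isotype 5 became 56, 11, 2, 40, 23 and 3, and for all 4 groups at once 326 became 625 with DESeq2, 628 without a filter and 550 with the block. For anti-Lag3 against isotype 0 became up to 14, for the single antibodies against each other up to 10 and for the interaction up to 10. Without 1 library the calls also moved, to 394 to 705 between CB and isotype (lowest without CB 3, and 405 and 421 without isotype 1 and CB 1), 4 to 57 between CB and anti-PD-L1 (4 without CB 3, 5 without anti-PD-L1 2), 42 to 125 between CB and anti-Lag3 (42 without CB 3), 109 to 382 for all 4 groups at once (109 without CB 3) and 0 to 10 for anti-PD-L1 against isotype, so the background shares carry that spread. Of the 59 listed genes, 5 calls between CB and isotype became 9 with DESeq2, 2 with each test against 0.2 and 8 with the block, which added *Ksr1* (adjusted p = 0.0384 with the block and 0.0417 without a filter, edgeR). Between CB and anti-PD-L1 their calls went from 0 to 4 with DESeq2, without a filter and with the block, and between CB and anti-Lag3 from 1 to between 0 and 4.

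Without 1 library the sign changed for estimates that were never called. Their ranges were, between CB and isotype, -1.79 to 0.39 for *Rasgrp4*, -0.20 to 0.13 for *Dusp6* and -3.61 to 0.54 for *Dusp9*. For anti-PD-L1 against isotype they were -0.14 to 0.96 for *Rasgrp4* and -0.0532 to 0.0648 for *Dusp2*, and for anti-Lag3 against isotype -0.0922 to 0.0616 for *Dusp2*, -0.13 to 0.31 for *Dusp4* and -0.32 to 0.11 for *Dusp6*. Between CB and anti-PD-L1 they were -2.17 to 0.0778 for *Rasgrp4*, -0.18 to 0.0707 for *Dusp4* and -0.35 to 0.43 for *Spry2*, between CB and anti-Lag3 -0.0944 to 0.28 for *Dusp6* and -0.78 to 0.10 for *Spry2*, and in the interaction -0.23 to 0.11 for *Rasgrp1* and -0.15 to 0.25 for *Dusp5*. The cause of these changes was not tested. For *Rasgrp4* and *Spry2* the reads of mice within a group ranged widely (4 to 41 for *Rasgrp4* in CB, 0 to 20 for *Spry2* in isotype).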
